A study of Bombyx mori with 12 samples.

Results

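Among the serpin genes measured in silkworm heads and thoraxes at the third molt, serpin-23, serpin-9 and serpin-7 each differed between tetramolters and trimolters in 1 direction in both batches of the study. Serpin-23 was higher in tetramolters, while serpin-9 and serpin-7 were lower. The 3 genes were selected on exactly these values, so their molting contrasts are given below as a description and carry no test. They are 3 of 30 genes in the count table whose symbol begins with serpin-, and of 17583 rows in all. All 3 passed the filter on low counts, as did 14 of the 27 other serpins and 10721 genes in total.

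The animals were silkworms (Bombyx mori) of the strain Guangri 3, spelled Gurangri 3 in the sample labels. Trimolters pass through fewer larval molts than tetramolters, the form with an added molt. The 4 groups were batch 1 tetramolters, batch 1 trimolters, batch 2 tetramolters and batch 2 trimolters, with 3 libraries each. Every group shared the strain, the tissue (head and thorax pooled) and mulberry leaf as food. The study reared larvae in spring and in autumn, the autumn ones warmer and under another day length. No label used here ties a batch to a season, and season, temperature, day length and sequencing run cannot be told apart within the batch contrast. No label says that a library holds 1 animal, so p-values measure the spread between these libraries, which may be technical in part.

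Serpins are protease inhibitors that act once: a target protease cuts an exposed loop near the end of the inhibitor and is trapped by the change of shape that follows. In insect blood they hold back the chains of serine proteases that end in melanin formation (through prophenoloxidase) and in the activation of Spätzle, the ligand of the Toll receptor. Larvae also carry serpins in fat body, blood cells and silk glands. Serpin-9 is listed in RefSeq under the further name ACHY-I, an antichymotrypsin, that is, an inhibitor of chymotrypsin-like proteases. Serpin-23 and serpin-7 are described here by their measurements, without a stated role.

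Each library held between 13449541 and 15650612 counts, and levels are given in CPM, counts scaled to a common library size with edgeR's TMM factors. Replicates of the batch 1 trimolters were less alike (r of log2 CPM between 0.937 and 0.967) than those of the other groups (0.978 to 0.991), and no pair of replicates agreed within counting noise. Marker genes of other tissues also varied: summed muscle markers (4 of 4 with a count) covered 23600 to 24530 CPM in batch 1 tetramolters, 7532 to 18320 CPM in batch 1 trimolters, 8409 to 9734 CPM in batch 2 tetramolters and 12920 to 15780 CPM in batch 2 trimolters. The prophenoloxidases PPO1 and PPO2, which mark haemocytes, summed to 1355 to 1470, 443 to 2205, 2009 to 2428 and 3316 to 4103 CPM in the same order of groups. Midgut markers (3 of 3) summed to 1174 to 1360, 1166 to 3484, 2505 to 3248 and 2255 to 2620 CPM. Fat body markers (8 of 9 with a count, vitellogenin VG at 0 in every library) summed to 10.4 to 12.7, 5.09 to 40.6, 11.8 to 69.1 and 7.97 to 20.9 CPM. That sum mixes markers that ran apart. In tetramolters and trimolters of batch 1, Lsp-t averaged 8.27 and 1.11 CPM, Sp1 2.84 and 3.91, and Sp2 0.349 and 16.0. In batch 2 tetramolters Sp2 averaged 23.8 CPM (SD 26.5). The other fat body markers averaged at most 0.599 CPM in any group. Nervous system and eye markers (2 of 2) summed to between 30.8 and 60.7 CPM over all libraries, but the 2 markers ran in opposite directions within each batch. From trimolters to tetramolters nAChRa7 had log2 changes of 1.16 in batch 1 and -2.45 in batch 2, and Elav had -0.27 and 0.42. Silk gland markers (4 of 5) summed to at most 1.71 CPM, with the fibroin heavy chain FIBH at 0 throughout. The 1 tracheal marker, Btl, covered 30.8 to 33.4 CPM in batch 1 tetramolters and 33.6 to 42.7 CPM in batch 1 trimolters. It covered 28.1 to 31.5 CPM in batch 2 tetramolters and 32.5 to 35.3 CPM in batch 2 trimolters. Groups standing apart in the same direction in both batches, as here, occurred for 4.64% of all tested genes. The log2 changes of Btl (tetramolters over trimolters) were -0.31 in batch 1 (edgeR quasi-likelihood test, adjusted p = 0.0356) and -0.16 in batch 2 (adjusted p = 0.262). The part of these tissue markers in the serpin results was not tested. In pooled tissue, fewer cells of a type and less RNA per cell cannot be told apart.

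Serpin-23 (gene ID 100272188) was the member with more transcript in tetramolters. In batch 1 it stood at 41.9, 41.7 and 42.7 CPM in the 3 tetramolter libraries, against 14.5, 19.6 and 20.7 CPM in the 3 trimolter libraries. In batch 2 it stood at 29.5, 17.7 and 21.3 CPM in tetramolters, against 5.41, 4.97 and 6.21 CPM in trimolters. Within each batch every tetramolter library lay above every trimolter library. The tetramolter mean was 2.30 times the trimolter mean in batch 1 and 4.13 times in batch 2, and the fitted log2 fold changes (tetramolters over trimolters) were 1.20 (SE 0.18) and 2.04 (SE 0.19). Across groups the mean was highest in batch 1 tetramolters at 42.1 ± 0.536 CPM, followed by batch 2 tetramolters at 22.8 ± 6.03, batch 1 trimolters at 18.3 ± 3.32 and batch 2 trimolters at 5.53 ± 0.632 (SD, n = 3 each). The middle 2 of these 4 groups overlapped, so their order is not set by these libraries, while every other pair of groups stood apart.

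Serpin-9 (gene ID 693071) had the largest fitted change of the 3 members in batch 1, and it ran the other way. In batch 1 it stood at 74.7, 78.6 and 74.7 CPM in tetramolters, against 406, 676 and 314 CPM in trimolters. In batch 2 it stood at 167, 54.5 and 99.4 CPM in tetramolters, against 262, 377 and 304 CPM in trimolters. Tetramolter and trimolter libraries did not overlap within either batch, nor across batches. The log2 fold changes were -2.61 (SE 0.35) in batch 1 and -1.55 (SE 0.35) in batch 2, so that the tetramolter mean was 0.163 and 0.341 of the trimolter mean. Group means were 76.0 ± 2.23 CPM in batch 1 tetramolters, 465 ± 188 CPM in batch 1 trimolters, 107 ± 56.6 CPM in batch 2 tetramolters and 314 ± 58.2 CPM in batch 2 trimolters (SD, n = 3 each). The 2 tetramolter groups overlapped with each other, and so did the 2 trimolter groups.

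Serpin-7 (gene ID 100272173) was also lower in tetramolters, by a smaller margin. In batch 1 it stood at 92.2, 100.03 and 98.8 CPM in tetramolters, against 211.5, 290.1 and 172 CPM in trimolters. In batch 2 it stood at 174, 121 and 124 CPM in tetramolters, against 184, 205 and 211 CPM in trimolters. The groups did not overlap within a batch, but in batch 2 the highest tetramolter library lay just under the lowest trimolter library. The log2 fold changes were -1.21 (SE 0.19) in batch 1 and -0.51 (SE 0.19) in batch 2. Group means were 97.0 ± 4.19 CPM in batch 1 tetramolters, 225 ± 59.9 CPM in batch 1 trimolters, 140.0 ± 29.7 CPM in batch 2 tetramolters and 200.04 ± 14.1 CPM in batch 2 trimolters (SD, n = 3 each), and batch 1 trimolters overlapped with both batch 2 groups. The same library, batch 2 tetramolter 1, was the highest of its group for all 3 members, including serpin-23, which moves the other way. RefSeq places the gene LOC101739898 over the span of serpin-7. Its 9005 counts changed by 0.18 and 0.19 (log2) in batch 1 and batch 2. The sources used here do not say whether counting used the strand, so reads of the overlapping genes may not be told apart.

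**Figure D1:**
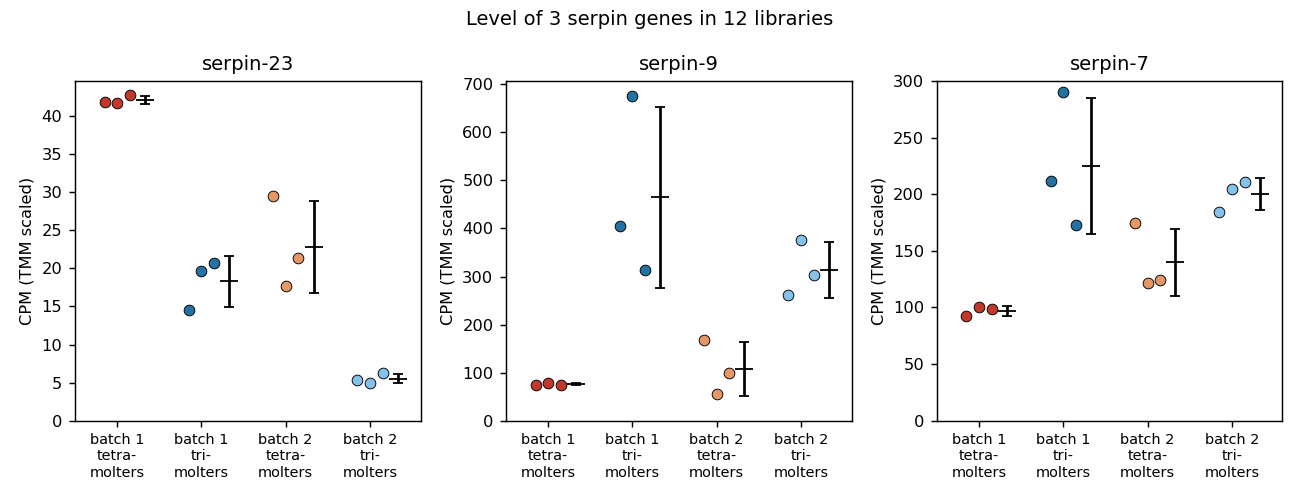
Level of serpin-23, serpin-9 and serpin-7 in CPM (TMM scaled, linear axis from 0) in each of 12 libraries, grouped by batch and molting type, with the mean and SD of each group of 3 beside the points. Within each batch the tetramolter libraries lie above the trimolter libraries for serpin-23 and below them for serpin-9 and serpin-7.

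As background to the selection, 45.4% of the 10721 tested genes passed an adjusted p under 0.05 (edgeR quasi-likelihood test) between tetramolters and trimolters in batch 1, and 38.0% did in batch 2. A much smaller share passed in both batches in the same direction, 0.970% being higher and 1.02% lower in tetramolters, while 21.0% passed in both with opposite directions. Serpin-23 is 1 of the 104 genes higher in both, and serpin-9 and serpin-7 are 2 of the 109 lower in both, which is what they were picked for. Groups that do not overlap in either batch and differ in the same direction occurred for 4.64% of tested genes, among them the 3 members. The member closest to the edge of the rule was serpin-7, through its change of -0.51 in batch 2. Just outside stood serpin-5, at 0.29 in batch 1 and 0.69 in batch 2, and serpin-14, at -0.59 and -0.25. Serpin-4 (0.39 and 0.04) and serpin-34 (1.17 and 0.03) also had fitted changes of 1 sign, with values near 0 in batch 2.

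The contrast of batch 2 with batch 1, averaged over both molting types, was not used to choose the genes and could be tested. Serpin-23 was lower in batch 2. Its 6 batch 2 libraries had a lowest, median and highest level of 4.97, 11.95 and 29.5 CPM, against 14.5, 31.2 and 42.7 CPM in the 6 batch 1 libraries. Those ranges overlap because each batch holds both molting types. With molting type in the model, serpin-23 fell by 1.31 on the log2 scale in batch 2 (SE 0.13, edgeR adjusted p = 0.000122), and leaving out any 1 library gave between -1.42 and -1.23. It was lower in batch 2 within tetramolters (-0.88) and within trimolters (-1.73) alike.

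Serpin-9 and serpin-7 did not pass the test of that batch contrast. Serpin-9 had 54.5, 214 and 377 CPM as lowest, median and highest in batch 2, against 74.7, 196 and 676 CPM in batch 1, with a log2 difference of -0.04 (SE 0.25, edgeR adjusted p = 0.921). Within molting types its batch differences had opposite signs, at 0.49 in tetramolters and -0.57 in trimolters. Serpin-7 had 121, 179 and 211 CPM in batch 2, against 92.2, 136 and 290.1 CPM in batch 1, with a log2 difference of 0.18 (SE 0.13, edgeR adjusted p = 0.303). Its batch differences were 0.53 in tetramolters and -0.17 in trimolters. For serpin-7 the library batch 1 trimolter 2, its highest, decides the call: without it the difference was 0.30 with an edgeR adjusted p of 0.0469. Thus 1 of 3 members passed, where 37.2% of all tested genes did.

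Ratios of counts taken inside a library do not depend on its scaling. For every count of serpin-7 there were 0.756 to 0.810 counts of serpin-9 in batch 1 tetramolters, 1.82 to 2.33 in batch 1 trimolters, 0.449 to 0.958 in batch 2 tetramolters and 1.42 to 1.84 in batch 2 trimolters. All 6 tetramolter libraries thus held fewer serpin-9 than serpin-7 counts, and all 6 trimolter libraries held more. Serpin-9 set against serpin-23 gave a wider spread, with 1.75 to 1.88 counts per serpin-23 count in batch 1 tetramolters, 15.1 to 34.4 in batch 1 trimolters, 3.08 to 5.67 in batch 2 tetramolters and 48.4 to 75.9 in batch 2 trimolters. Serpin-7 per serpin-23 count ran from 2.20 to 2.40, 8.32 to 14.8, 5.83 to 6.87 and 34.0 to 41.2 in the same order of groups. Serpin-23 ran opposite to serpin-9 and serpin-7 in the values that chose the genes, so the separation of its ratios by molting type is a description. Serpin-9 and serpin-7 changed in the same direction. Their ratio follows the larger log2 changes of serpin-9 (-2.61 in batch 1 and -1.55 in batch 2) against those of serpin-7 (-1.21 and -0.51). It rests on the same selected contrasts and is a description too. Both ratios to serpin-23 were higher in batch 2 than in batch 1 within tetramolters and within trimolters, with no overlap between the batches.

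**Figure D2:**
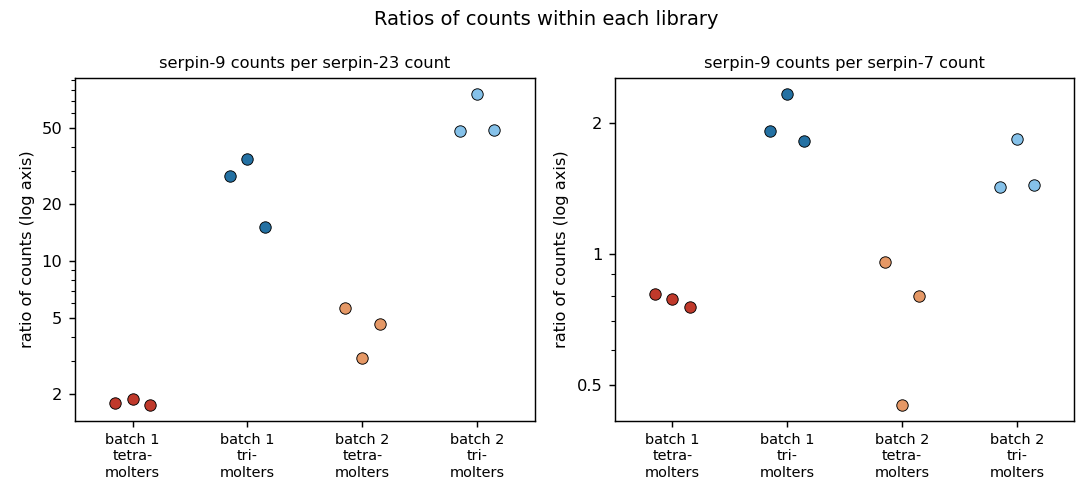
Counts of serpin-9 per count of serpin-23 (left) and per count of serpin-7 (right) in each of 12 libraries, on log axes, grouped by batch and molting type. In the right panel the 6 tetramolter libraries lie below 1 and the 6 trimolter libraries above 1. In the left panel the 4 groups do not overlap.

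FPKM (fragments per kilobase of transcript, scaled to depth), the authors' length-scaled values, allow levels of different serpins to be compared. The FPKM column of batch 1 trimolter 2 is empty. In CPM that library was the highest of its group for serpin-9 (676) and serpin-7 (290.1), so FPKM means and SDs of batch 1 trimolters leave it out. In FPKM serpin-9 averaged 59.3 in batch 1 tetramolters, 287 in batch 1 trimolters (2 libraries), 87.1 in batch 2 tetramolters and 255 in batch 2 trimolters. Its rank among the 30 serpins was 7 in both tetramolter groups and 2 in both trimolter groups. Serpin-7 averaged 76.9, 155, 116 and 165 FPKM in the same order of groups and ranked 6, 3, 4 and 3. Serpin-23, at 30.0, 12.9, 17.0 and 4.09 FPKM, ranked 9, 11, 9 and 14. Of the summed FPKM of all serpins, serpin-9 took 3.84% ± 0.235 in batch 1 tetramolters, 20.5% ± 1.27 in batch 1 trimolters, 6.90% ± 3.33 in batch 2 tetramolters and 16.4% ± 2.67 in batch 2 trimolters (SD, n = 3 except 2 in batch 1 trimolters). Serpin-23 took 1.94%, 0.942%, 1.36% and 0.264%. The sum itself averaged 1548, 1395, 1238 and 1552 FPKM. In proportion to its size it varied less than any member, but the members were picked for differing between groups. The most abundant serpin in every group was serpin-1, at 639.5, 355, 317 and 467 FPKM. Its further RefSeq names include both AT, an antitrypsin, and AchyII, a name like the ACHY-I of serpin-9.

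**Figure D3:**
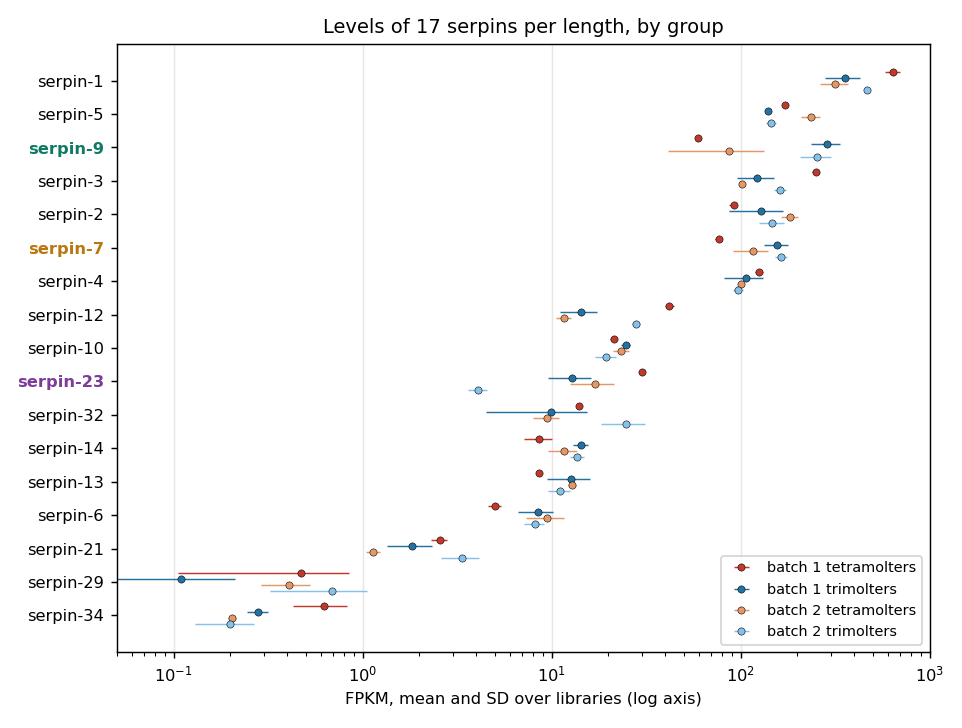
Level per length (FPKM, log axis) of the 17 serpins that passed the low-count filter, as mean and SD over 3 libraries per group (2 for batch 1 trimolters), ordered by the mean of the groups. Serpin-9 ranks 2 among serpins in both trimolter groups and 7 in both tetramolter groups, and serpin-1 is highest in every group.

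The other 14 tested serpins are those left after the rule took out the 3 members, which passed in both batches with 1 sign. Among the 14 this lowers the shares that passed and raises the shares with opposite signs, here and below. Those shares therefore do not compare evenly with the shares of all tested genes. In batch 1, 5 were higher in tetramolters, 3 were lower and 6 did not pass, so that 8 of 14 passed where 45.4% of all tested genes did. Their median log2 change was 0.39, against 0.01 for all tested genes. In batch 2, 1 was higher, 5 were lower and 8 did not pass, so that 6 of 14 passed where 38.0% of all tested genes did. Their median there was -0.11, against -0.01. Fitted changes, called or not, had opposite signs in the 2 batches for 10 of the 14 and for 70.1% of all tested genes. With the members included that was 10 of 17 tested serpins. At least 1 batch passed for 11 of the 14 and for 60.4% of all tested genes. Without the library batch 1 trimolter 3 the batch 1 count was 3 higher and 1 lower, and without batch 1 tetramolter 1 it was 3 higher and 2 lower.

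Serpin-1, serpin-3 and serpin-12 passed in both batches with opposite directions, 3 of 14 where 21.0% of all tested genes did so. Serpin-3, whose tobacco hornworm counterpart inhibits the proteases that activate prophenoloxidase, averaged 879 ± 36.0 CPM in tetramolters and 409 ± 72.3 CPM in trimolters of batch 1, a change of 1.11 (SE 0.13, edgeR adjusted p = 9.69e-05). In batch 2 it averaged 345 ± 12.4 CPM in tetramolters and 548 ± 39.8 CPM in trimolters, a change of -0.67 (SE 0.13, adjusted p = 0.00242). Serpin-12 rose by 1.44 in batch 1 (edgeR adjusted p = 4.38e-05) and fell by 1.28 in batch 2 (adjusted p = 0.000141). Serpin-1 rose by 0.81 in batch 1 (edgeR adjusted p = 0.00169) and fell by 0.57 in batch 2 (adjusted p = 0.0147). The batch 2 call of serpin-1 was lost without batch 2 tetramolter 2 (change -0.44, edgeR adjusted p = 0.0610).

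Serpin-21 and serpin-32 passed in batch 2 alone, at -1.57 (edgeR adjusted p = 0.00042) and -1.40 (adjusted p = 0.00217), with batch 1 changes of 0.40 and 0.63. Without batch 1 trimolter 1, serpin-32 also passed in batch 1 (change 1.02, edgeR adjusted p = 0.00306). Serpin-5, which in silkworm blood restrains prophenoloxidase activation and antimicrobial peptide production, rose by 0.69 in batch 2 (SE 0.11, edgeR adjusted p = 0.000699). Its level there was 314 ± 36.8 CPM in tetramolters and 195 ± 12.5 CPM in trimolters. In batch 1 it averaged 238 ± 4.54 CPM in tetramolters and 195 ± 8.02 CPM in trimolters, a change of 0.29 with an edgeR adjusted p of 0.0510. That change passed under 5 alternatives, among them DESeq2 (adjusted p = 0.0283) and limma-voom (adjusted p = 0.0438), and without batch 1 trimolter 2, batch 2 tetramolter 1 or batch 2 tetramolter 3 (edgeR adjusted p = 0.0421, 0.0436 and 0.0487). Under those settings serpin-5, like the members, passed the batch 1 test in the direction of its batch 2 change. Its groups stood apart in the same direction in both batches. That held for 1 of the 14 other tested serpins and for 4.64% of all tested genes.

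In batch 1 serpin-34 (1.17) and serpin-4 (0.39) were higher and serpin-2 (-0.71), serpin-13 (-0.63) and serpin-14 (-0.59) lower in tetramolters, with edgeR adjusted p of 0.0177, 0.0488, 0.0207, 0.00497 and 0.0126 in that order. Of these, the call of serpin-13 held without any 1 library. Serpin-34 lost its call without batch 1 trimolter 3, tetramolter 1 or tetramolter 2, serpin-2 without batch 1 trimolter 2, trimolter 3 or tetramolter 1, serpin-14 without batch 1 trimolter 3, and serpin-4 without any library other than batch 1 trimolter 1. The edgeR adjusted p then reached 0.0819 for serpin-34, 0.0656 for serpin-2, 0.0537 for serpin-14 and 0.1996 for serpin-4. Without batch 1 trimolter 2 the change of serpin-2 was -0.45. The serpin-4 call was also lost under 6 of the other processing alternatives (adjusted p 0.0510 to 0.176) and the serpin-2 call under 3, both fits to FPKM and the fit to the 2 groups alone (0.0590 to 0.0782). Serpin-34 rests on few reads, with 85 counts in batch 1 tetramolters and 38 in batch 1 trimolters summed over 3 libraries. Serpin-6, serpin-10 and serpin-29 passed in neither batch. The remaining 13 serpins had 10 counts or fewer over all 12 libraries and were not tested, and of these serpin-16 and serpin-18 had none.

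**Figure D4:**
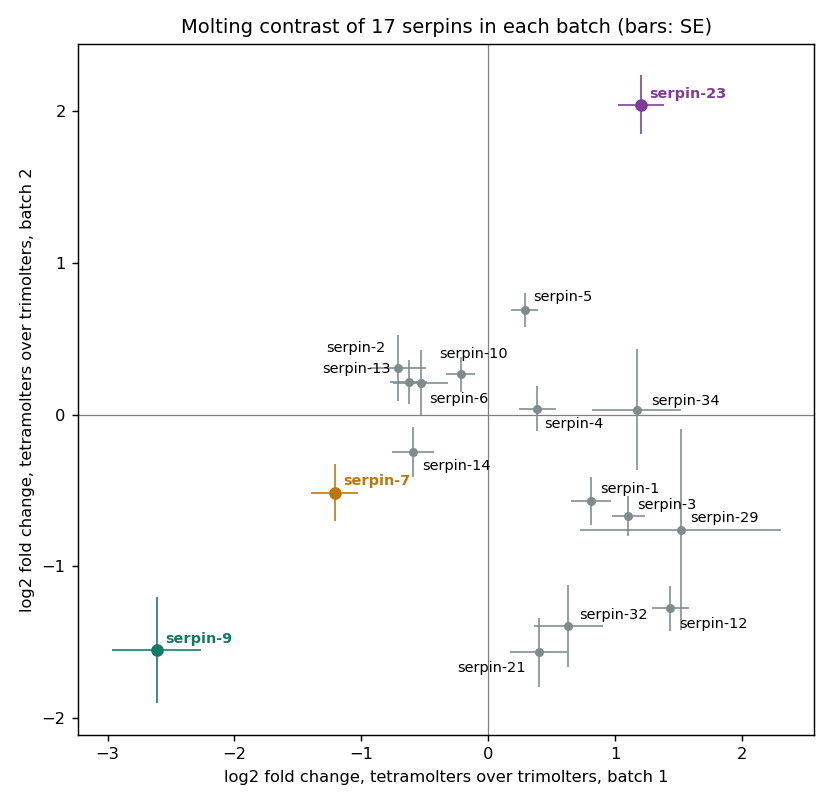
Log2 fold change of tetramolters over trimolters in batch 1 (horizontal) and batch 2 (vertical) for the 17 tested serpins, with bars of 1 SE. Serpin-23 lies in the upper right and serpin-9 and serpin-7 in the lower left. Of the 14 other serpins 10 have opposite signs in the 2 batches, as do 70.1% of all tested genes. The share of the 14 is raised by the rule, which took out members that share a sign.

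The difference between the 2 molting contrasts was itself tested for the other serpins. It passed for 9 of the 14, being positive (batch 2 above batch 1) for 4 and negative for 5, where 53.8% of all tested genes passed. The members' own contrasts, chosen for sharing a sign, are set side by side above, with no p for their difference. In the batch contrast averaged over molting types, 2 other serpins were higher in batch 2 and 4 lower, 6 of 14 where 37.2% of all tested genes passed. Serpin-34 fell by 1.11, serpin-12 by 0.56, serpin-3 by 0.46 and serpin-1 by 0.39 (edgeR adjusted p = 0.00734, 0.00221, 0.00314 and 0.0186). Serpin-6 (0.49, edgeR adjusted p = 0.0277) and serpin-2 (0.42, adjusted p = 0.0499) were the 2 higher ones. The serpin-6 call was lost on leaving out any batch 1 tetramolter library, tetramolter 2 or 3 of batch 2, or trimolter 1 or 2 of batch 2 (edgeR adjusted p up to 0.0757), and that of serpin-2 without any library other than batch 1 trimolter 1 or 2 (up to 0.112).

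Serpins act on protease cascades, so genes of those cascades and of the immune pathways around them were set beside the members. Of 44 such genes found, 39 were tested: 8 were higher and 7 lower in tetramolters of batch 1 (median log2 change 0.08), and 18 higher and 4 lower in batch 2 (median 0.44). Thus 15 of 39 passed in batch 1 and 22 of 39 in batch 2, where 45.4% and 38.0% of all tested genes did, shares that also stand as background to the counts by role. The protease cascade list of 7 genes holds the prophenoloxidases PPO1 and PPO2 besides proteases. In it 3 were higher and none lower in batch 1, and none higher and 1 lower in batch 2. The clip-domain protease gene CLIP11 rose by 1.15 in batch 1 (edgeR adjusted p = 0.000111) and fell by 0.91 in batch 2 (adjusted p = 0.000609). PPAE, the prophenoloxidase-activating enzyme, named here after its values were seen, averaged 2251 ± 17.6 CPM in tetramolters and 1111 ± 148 CPM in trimolters of batch 1 (change 1.02, edgeR adjusted p = 0.000328). In batch 2 it averaged 978 ± 152 CPM in tetramolters and 1266 ± 145 CPM in trimolters (change -0.37, edgeR adjusted p = 0.0700).

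Recognition proteins bind microbial surfaces upstream of the proteases. Of 15 tested, 3 were higher and 4 lower in batch 1, and 7 higher and 3 lower in batch 2, so that the 7 of 15 passing in batch 1 were close to the 45.4% of all tested genes. The beta-glucan recognition protein gene BGRP2 rose by 1.52 in batch 1 (edgeR adjusted p = 9.01e-05) and had a change of 0.23 in batch 2 (adjusted p = 0.328). C-type lectin genes varied: CTL10 rose by 1.11 in batch 2 (edgeR adjusted p = 7.11e-05), CTL5 fell by 1.08 in batch 1 (adjusted p = 4.38e-05) and rose by 0.47 in batch 2 (adjusted p = 0.00619), and CTL19 fell by 1.86 in batch 1 (adjusted p = 0.0002). The CTL19 rise of 0.70 in batch 2 (edgeR adjusted p = 0.0416) was lost when any 1 of 8 libraries was left out.

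Of 5 tested genes of the Toll and IMD pathways, 1 was higher and 2 lower in batch 1, and 1 higher and none lower in batch 2. The NF-kappaB factor gene Dorsal fell by 0.70 in batch 1 (edgeR adjusted p = 0.000307), with -0.07 in batch 2 (adjusted p = 0.639). Of 12 tested antimicrobial peptide genes 1 was higher and 1 lower in batch 1 (median -0.15), against 10 higher and none lower in batch 2 (median 4.29), where 45.4% and 38.0% of all tested genes passed in either direction. Levels of these genes differed widely between the batch 2 tetramolter libraries: Attacin1, named after its values were seen, averaged 75.0 ± 60.9 CPM in batch 2 tetramolters and 2.58 ± 1.37 CPM in batch 2 trimolters (SD, n = 3 each). Over the same 2 contrasts serpin-9 and serpin-7 were lower in both batches and serpin-23 higher in both.

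**Figure D5:**
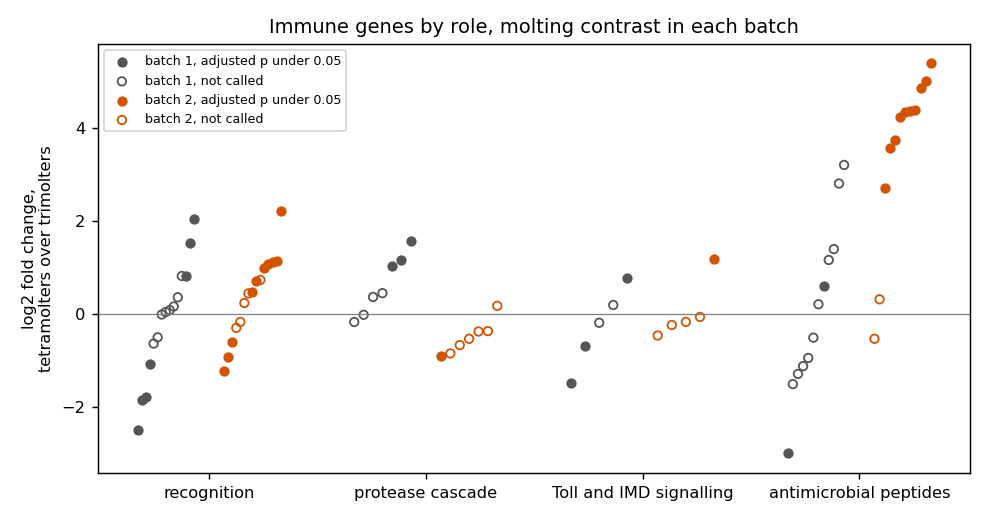
Log2 fold change of tetramolters over trimolters for 39 immune genes in 4 roles, batch 1 in grey and batch 2 in orange, with filled points for an edgeR adjusted p under 0.05. In batch 2, 10 of 12 antimicrobial peptide genes are higher in tetramolters, while 1 of 7 protease cascade genes passes, as lower.

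Across the 12 libraries serpin-9 and serpin-7 followed each other closely, with a Pearson correlation of log2 CPM of 0.946. Each was the other's closest match among 1021 named genes with a mean of at least 1 log2 CPM. The points share the 4 groups, so such a coefficient largely restates the group means and is given as a description. Next for both came Idgf, a chitinase-like growth factor gene (0.935 with serpin-9, 0.929 with serpin-7), and Boule, an RNA-binding protein gene (0.918 and 0.914). Idgf averaged 483 ± 2.92 CPM in batch 1 tetramolters, 852 ± 146.5 in batch 1 trimolters, 561 ± 71.5 in batch 2 tetramolters and 746 ± 98.7 in batch 2 trimolters (SD, n = 3 each). The other matches of serpin-9 were NimB, a nimrod family gene (0.865), and the adipokinetic hormone receptor gene Akhr (0.854). Those of serpin-7 were the cuticle protein gene CPH25 (0.902) and the juvenile hormone epoxide hydrolase gene Jheh2 (0.848). Their molting changes were -1.96 and -1.08 in batch 1 but only -0.0985 and -0.0323 in batch 2.

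The 5 genes closest to serpin-23 were a different set. The cuticle protein gene CPR127 led with 0.902, followed by the P450 gene CYP49A1 (0.857), NGR-A16 (0.843), Y-f2 of the yellow family (0.827) and MLE (0.826). CPR127 averaged 603 ± 4.94 CPM in batch 1 tetramolters, 409 ± 37.7 in batch 1 trimolters, 591 ± 57.4 in batch 2 tetramolters and 314 ± 16.0 in batch 2 trimolters (SD, n = 3 each). Serpin-23 itself had coefficients of -0.592 with serpin-9 and -0.652 with serpin-7.

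The members lie apart in the genome. In the RefSeq assembly ASM3026992v2, used here for names and gene order alone, serpin-23 sits directly between serpin-30 and serpin-19, which had 6 and 7 counts in all 12 libraries together, against 3940 for serpin-23. Serpin-9, with 42399 counts, has no other serpin on its chromosome. Serpin-7, with 29487 counts, has serpin-14, with 2954 counts, next to it on one side. On its other side lies LOC692832, with 6945 counts and changes of 0.50 in batch 1 and -0.60 in batch 2. Serpin-14 had a lower fitted level in tetramolters of both batches (-0.59 and -0.25), passing in batch 1. A direct neighbour of serpin-9 on one side, LOC101742036, had changes of 1.06 and -0.54, and the one on the other side, LOC101738189, had -0.39 and -0.34.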

How the data were processed

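RNA with poly(A) tails from 12 libraries was sequenced in pairs, per the labels' protocols. The authors deposited a table of read counts per gene and a table of FPKM values. DESeq2 1.38.3, StringTie 2.2.1, HISAT2 2.2.1 and Trimmomatic 0.39 are named in the submitters' processing notes, though the extract protocol gives another HISAT2 version. The sources used here do not name the genome build, annotation, counting program or strand setting. Of the 12 FPKM columns 1 is empty, so FPKM values cover 11 libraries.

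Rows were named through RefSeq gene IDs (14945 of 17583 matched). The 511 rows of loci numbered by the authors, 0.21% to 0.264% of counts, were left out. The counts were analysed in R 4.3.3 with edgeR 4.0.16 (TMM, filterByExpr, quasi-likelihood test, a mean for each of 4 groups in 1 fit). Calls are at a Benjamini-Hochberg adjusted p under 0.05 over 10721 genes. Alternatives used limma 3.58.1, DESeq2 1.42.0 and FPKM with pseudocounts of 1 and 0.1. The procedure was tested on simulated data in which far fewer genes changed than were called here. That test does not cover changes as widespread as these.

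The members and lists were chosen with earlier results of these data known. Named besides the members are other serpins called in either batch or among the 4 most abundant, the 5 genes most correlated with each member, and 6 immune genes by smallest p. Protein sequences were not used.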

Additional observations from a re-analysis of the deposited data

Results flagged for a closer look

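For 9 of the 14 other tested serpins the molting contrast differed between the batches by a test of the difference itself (edgeR, batch 2 minus batch 1, log2, 53.8% of all tested genes passing). The difference was -2.71 for serpin-12 (edgeR adjusted p = 4.3e-06), -1.77 for serpin-3 (2.06e-05), -1.38 for serpin-1 (0.000335), -1.97 for serpin-21 (0.000341) and -2.03 for serpin-32 (0.000983). It was 0.84 for serpin-13 (edgeR adjusted p = 0.00504), 1.01 for serpin-2 (0.0159), 0.48 for serpin-10 (0.0253) and 0.40 for serpin-5 (0.0443). Serpin-5 moved in 1 direction in both batches, so its difference is one of size. The calls of serpin-10 and serpin-5 were lost under several alternatives, with edgeR adjusted p up to 0.0792 and 0.147.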

How the results depend on the processing

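The members' molting changes kept their sign under all 10 alternatives and without any 1 library. The genes were picked for these signs in the same libraries, so this is a description and no test. Without 1 library, serpin-23 ranged over 1.03 to 1.30 (batch 1) and 1.82 to 2.20 (batch 2), serpin-9 over -2.84 to -2.25 and -2.03 to -1.24, and serpin-7 over -1.37 to -0.99 and -0.70 to -0.42. In the batch contrast serpin-7 passed with limma on log2(FPKM + 1) (0.33, adjusted p = 0.0303) and on log2(FPKM + 0.1) (0.33, adjusted p = 0.0301). Both fits lack batch 1 trimolter 2, the library whose removal also gave a pass with edgeR, so these passes are not separate. In that contrast serpin-7 ranged over 0.088 to 0.295 without 1 library. Serpin-9 had values of both signs there (-0.27 to 0.15 without 1 library) and never passed. The batch 1 count of other serpins called was 4 to 9 without 1 library, against 8. The immune list gave 12 to 17 in batch 1 and 18 to 31 in batch 2. With upper quartile scaling the median difference of the contrasts over all genes was -0.14, against -0.01. Deviations of same-numbered libraries from their group means had r from -0.0424 to 0.114. The value for batch 1 replicate 1, 0.114, lay above the threshold of 0.1 set for pairing. Such low coefficients cannot show whether replicate numbers pair the libraries. The replicate block took a different form for each kind of contrast. For the batch contrast, replicate number was a term shared by both batches. The batch difference was then -1.31 for serpin-23 (edgeR adjusted p = 0.000364) and 0.19 for serpin-7 (0.308), and 6 other serpins were called. For the molting contrasts, each replicate number within a batch was its own block. The counts of other serpins called were then 8, 6 and 7 for batch 1, batch 2 and their difference.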
